A study of Mus musculus with 20 samples.

Results

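The transcripts described here are those that differed in the same direction between conditional knockout (cKO) and control keratinocytes when the deletion was induced on the skin and when it was induced by injection. They were sought in all 20 libraries of the series, 10 cKO against 10 control libraries, with the route of induction as a block. The cKO mice carried K14-CreERTam, a tamoxifen-dependent Cre recombinase under the keratin 14 promoter, on a Cyp11b1 L2/L2 (floxed) background. The controls were Cre-negative Cyp11b1 L2/L2 littermates, so they lacked the transgene as well as the deletion, and no group had Cre with an intact Cyp11b1 gene. All mice received tamoxifen on 5 days, and keratinocytes were sorted from ear and back skin on day 6. The topical groups had 20 µl on the ear and 100 µl on the back, and the systemic groups had 100 µl of a 10 mg/ml solution into the peritoneum. There were 5 mice in each of the 4 groups. Ages were not used here. Because the controls lack Cre, effects of Cre and of the deletion cannot be told apart.

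Cyp11b1 encodes steroid 11-beta-hydroxylase, which completes the synthesis of corticosterone, the main glucocorticoid of mice. Keratinocytes of the epidermis can make glucocorticoids locally, and the glucocorticoid receptor is known for restraining inflammatory genes in skin. CreERTam is a fusion of Cre with a mutated ligand-binding domain of the estrogen receptor that enters the nucleus when it binds a tamoxifen metabolite. The transcription factor p53 is activated by DNA damage and other stress and induces repair, arrest and death genes. Interferons induce antiviral and antigen presentation genes. Targets of glucocorticoids, p53 and interferon were followed.

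Cyp11b1 itself (ENSMUSG00000075604, chr15:74834125-74841643, GRCm38) could not serve to check the labels. It had 9 reads in 4 topical control libraries, 7 in 2 topical cKO libraries, 2 in 2 systemic control libraries and 4 in 1 systemic cKO library. No library held more than 6 reads, and a floor of 3 counts corresponded to 0.0599 to 0.259 CPM (counts scaled to the library size). On log2(CPM + 1), cKO minus control was -0.0321 (exact two-sided permutation test within routes, p 0.605, 63504 arrangements). At these read numbers a loss could not be detected.

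A second check went against the labels of 3 libraries. Esr1, the gene of estrogen receptor alpha, stood at 34.1 to 74.6 CPM in all 5 topical cKO libraries and at 50.8, 70.9 and 53.8 CPM in systemic cKO 2, 6 and 7. In the topical controls it ran from 1.41 to 2.89 CPM and in systemic controls 1, 3, 4 and 5 from 1.35 to 4.41 CPM. The libraries labelled systemic cKO 4 and systemic cKO 5 had 1.86 and 2.39 CPM, within the control range. The library labelled systemic control 6 had 43.7 CPM, within the cKO range. Whether reads of the CreERTam transgene were counted on Esr1 is not stated.

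Gypc, which encodes the red cell membrane protein glycophorin C, parted the libraries in the same way. It was at 13.5 CPM or more in the other 8 cKO libraries and at 0.887 CPM or less in the other 9 controls. The libraries labelled systemic cKO 4 and 5 had 0.293 and 0.316 CPM, and the library labelled systemic control 6 had 16.3 CPM. Dsc2, a desmosomal cadherin, had 2.62, 3.62 and 17.96 CPM in these 3 libraries, against 4.83 to 31.0 CPM in the other cKO and 0.988 to 2.59 CPM in the other controls. The labels are kept as given, the reason for the disagreement was not tested, and counts and lead results below are given with and without these 3 libraries. That leaves 8 cKO and 9 control libraries. The values of Esr1 and Gypc, which picked out the 3 libraries, are a description and have no test there.

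**Figure D1:**
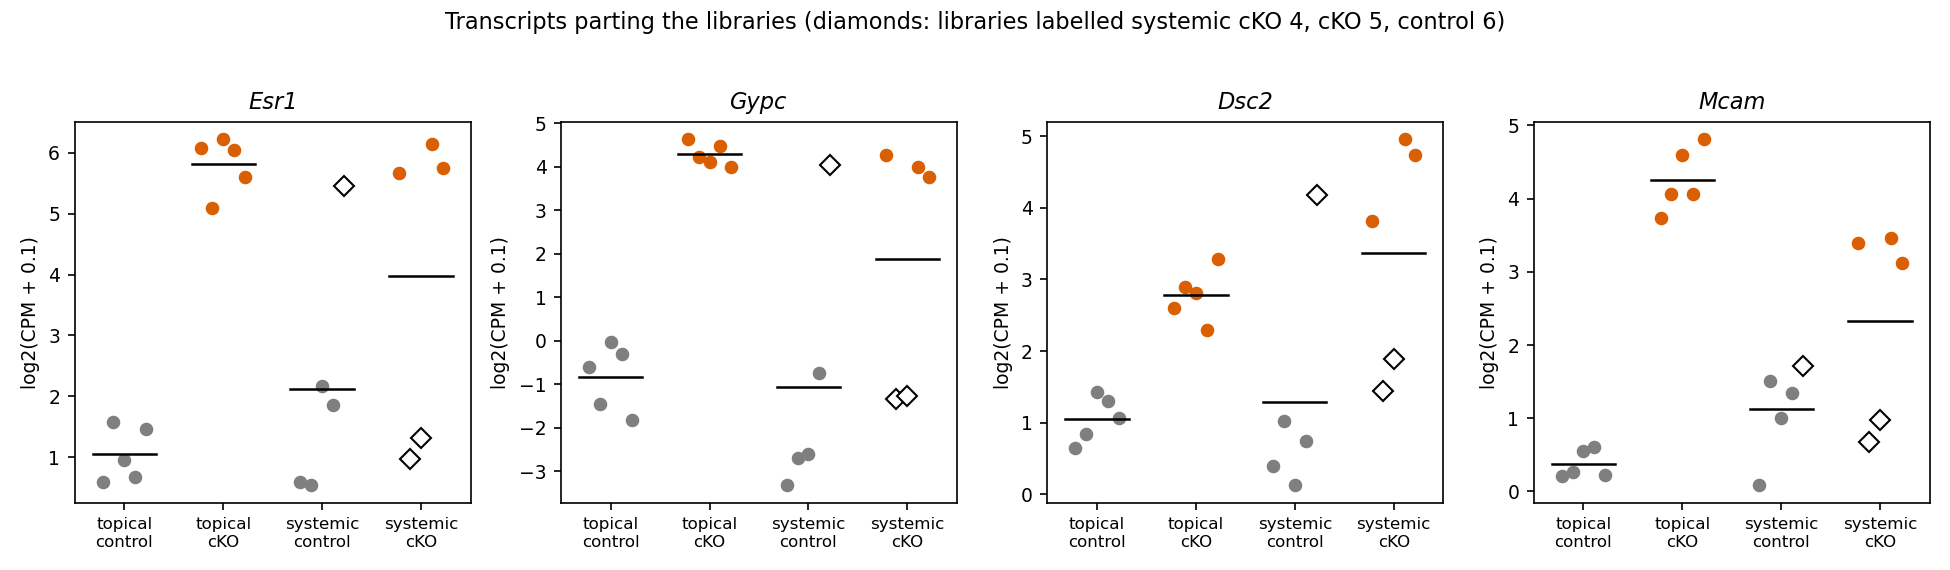
Levels of Esr1, Gypc, Dsc2 and Mcam in each library on a log2(CPM + 0.1) scale, by route and genotype, with lines at the group means and diamonds for the libraries labelled systemic cKO 4, systemic cKO 5 and systemic control 6. The diamonds of Esr1 and Gypc lie among the libraries of the other genotype, with Esr1 at 1.86, 2.39 and 43.7 CPM.

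Keratinocyte transcripts were abundant, with Krt5 at 11390 to 32260 CPM and Krt14 at 24490 to 76080 CPM. The leukocyte gene Ptprc reached at most 0.108 CPM and the T cell gene Cd3e at most 0.128 CPM. Other markers were not absent, as summed epidermal immune cell markers ran from 74.5 to 276 CPM. Sebaceous gland markers summed to 562.7 to 4706 CPM and hair follicle markers to 1307 to 5949 CPM. Library totals ran from 11588851 to 50082771 counts. Mitochondrially encoded genes took 1.87% to 7.49% of counts, and Y-linked transcripts marked 3, 2, 3 and 2 males among the topical control, topical cKO, systemic control and systemic cKO mice. The satellite-like transcript Gm10800 was at 73.0 to 7615 CPM in the 5 systemic controls and at 30380 CPM in systemic cKO 2, against at most 12.7 CPM in the other 14 libraries, which nearly follows genotype within the systemic route. The part of these differences in the results below was not tested beyond the fits that carry them as covariates. In bulk RNA, fewer cells of a type and less RNA per cell cannot be told apart.

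Few genes differed by genotype over both routes. Of 12424 genes tested with edgeR's quasi-likelihood test, 5 were called at an adjusted p under 0.05 (0.0402%), namely Zmat3, Mcam, Exoc4, St14 and Ei24. All 5 rose in cKO and had the same direction in each route. No gene was called lower, although 366 (2.95%) were lower before adjustment at p under 0.05. By comparison, DESeq2 called 3 lower genes and limma voom 1. Before adjustment 845 genes (6.8%) were under 0.05, of which 479 (3.86%) were higher. Within single routes, 16 genes (0.129%) were called in the topical comparison and 235 (1.89%) in the systemic one, and 5.66% and 15.3% of genes were under 0.05 before adjustment. The 5 calls over both routes were lost with sex as a covariate. There edgeR called 0 genes, and the 5 had adjusted p from 0.0564 to 0.0679. Blocking by replicate number within each route likewise left 0 calls, though these numbers are not stated to pair mice.

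Asking for an unadjusted p under 0.05 in each route on its own gave 32 genes (0.258%) with the same direction, 25 higher (0.201%) and 7 lower (0.0563%) in cKO. There were 102 genes (0.821%) with opposite directions under the same rule. Without any threshold, 41.3% of genes had the same sign in both routes. Opposite signs were thus the more frequent under either reading. In the other 17 libraries, 38 genes (0.302%) had the same direction, 34 higher (0.27%) and 4 lower (0.0318%), and 51 (0.405%) the opposite one, with 49.1% of all genes having the same sign. The sets of 32 and 38 shared 19 genes.

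The count of called genes rested on which libraries were included. Without the 3 libraries at odds with their labels it was 21 of 12582 (0.167%), 20 higher (0.159%) and 1 lower (0.00795%), each with the same direction in both routes. The 20 include Esr1 and Gypc, whose levels chose the libraries to leave out, and 18 remain besides them. This choice favours genes that vary with Esr1, such as Mcam, Ddit4l, Dsc2 and Dglucy, so their adjusted p there is no independent evidence. There 6.16% of genes were under 0.05 before adjustment, 4.24% higher and 1.92% lower. Topically 24 genes were called (0.191%, with 6.32% before adjustment) and systemically 21 (0.167%, with 9.31%). Only Zmat3, Mcam and Exoc4 were called in both sets of libraries. Leaving out single libraries gave 0 calls for topical controls 1, 3 and 5, topical cKO 3, 4 and 7, systemic controls 1 and 4, and systemic cKO 6 and 7, with 729 to 985 genes at an unadjusted p under 0.05. It gave 1 and 2 calls without topical controls 6 and 7, and 3 without systemic control 3 or 5. It gave 9 without systemic control 6, 10 without topical cKO 5, 10 without systemic cKO 4 and 13 without systemic cKO 2.

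**Figure D2:**
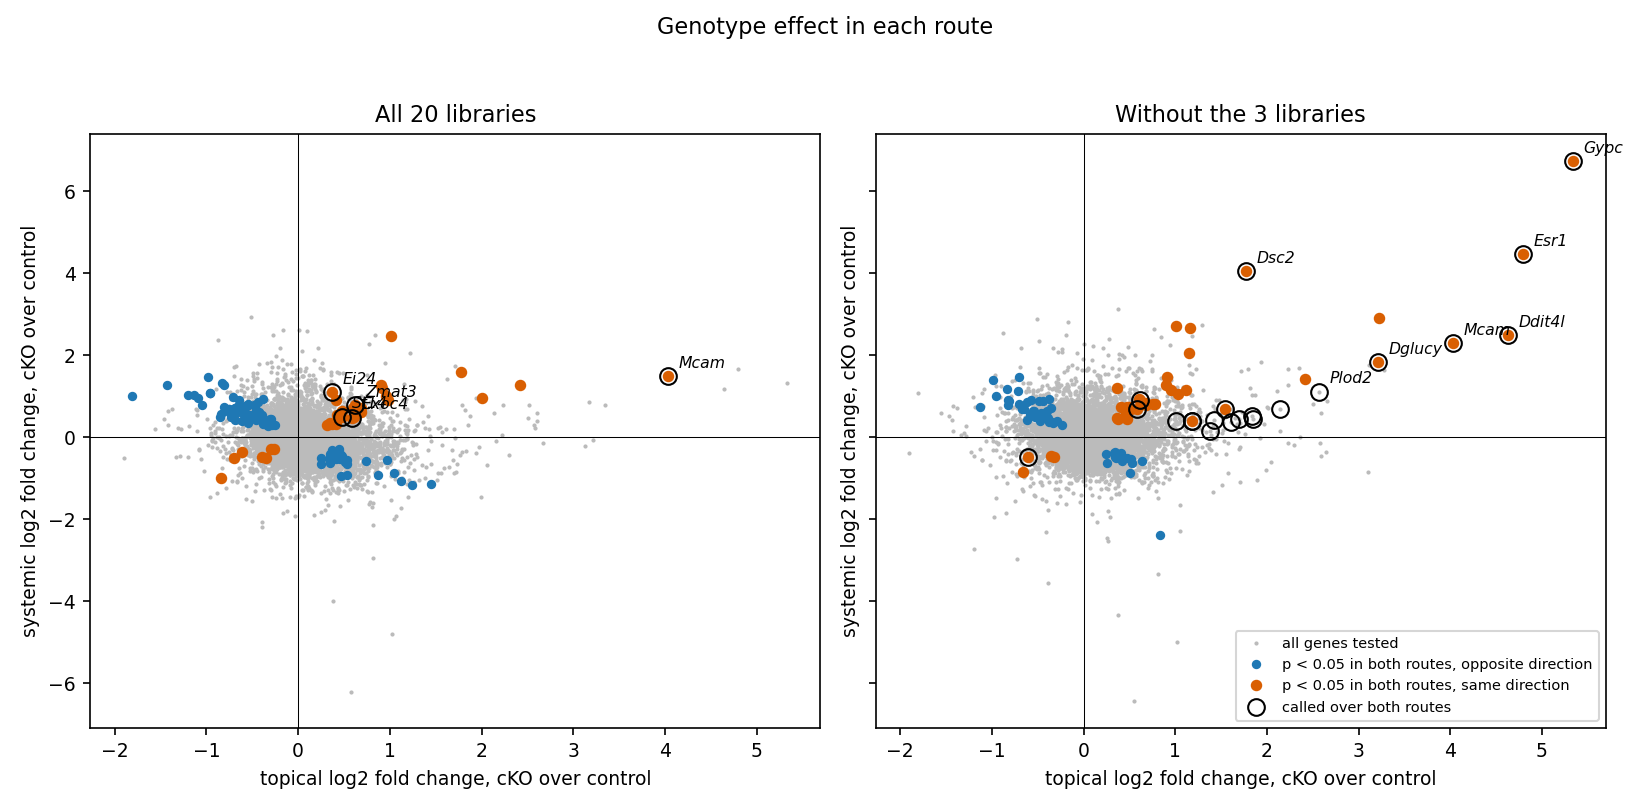
Log2 fold changes of cKO over control for every gene tested, topical on the x axis and systemic on the y axis, with all 20 libraries on the left and without the 3 libraries on the right. Orange points had an unadjusted p under 0.05 in both routes with the same direction (32 and 38 genes), blue points the opposite direction (102 and 51), and circles mark the 5 and 21 called genes.

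Zmat3 (ENSMUSG00000027663, chr3:32334792-32366014), an RNA-binding zinc finger protein and a known p53 target, rose to similar levels in both routes. In topical controls it was at 8.37, 10.99, 9.08, 12.1 and 11.2 CPM, and in topical cKO at 13.04, 17.9, 18.3, 11.8 and 18.9 CPM. Systemic controls had 9.38, 11.8, 8.36, 7.44 and 9.94 CPM, and systemic cKO 14.2, 13.2, 15.8, 20.3 and 17.9 CPM. The systemic groups did not overlap, and in the topical groups 1 cKO library lay below the highest control. The log2 fold change over both routes was 0.70 (SE 0.12, edgeR adjusted p 0.0281), with 0.62 (SE 0.16) topically and 0.79 (SE 0.17) systemically. The libraries labelled systemic cKO 4 and 5, which resembled controls in Esr1, were above every systemic control in Zmat3. Its fold change in the other 17 libraries was 0.74 (SE 0.13, adjusted p 0.016). With an indicator of the 6 libraries high in Gm10800 it was 0.61 (SE 0.14, adjusted p 0.131).

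Ei24 (ENSMUSG00000062762, chr9:36779159-36797393), which encodes an endoplasmic reticulum protein first found as a p53-induced gene, had its larger difference in the systemic mice. Topical controls were at 21.6, 20.5, 21.4, 24.6 and 16.9 CPM, and topical cKO at 19.4, 27.2, 28.8, 27.2 and 33.5 CPM. Systemic controls were at 10.3, 11.2, 9.15, 10.9 and 12.2 CPM, and systemic cKO at 16.03, 20.8, 22.4, 28.3 and 27.8 CPM. Every systemic cKO library was above every systemic control, while topical cKO 2 lay inside the topical control range. Over both routes Ei24 rose by 0.73 on the log2 scale (SE 0.14, adjusted p 0.0438). The difference between routes was 0.73 (SE 0.22, adjusted p 0.133). Ei24 in the other 17 libraries was at 0.71 (SE 0.15) with an adjusted p of 0.0705, and with the indicator of the 6 libraries it was 0.42 (SE 0.12, adjusted p 0.392), so its call was lost in both.

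The sequence before the RefSeq start of Ei24 holds a match to the decamer of which the p53 response element has a pair, as do those of Ccng1 and Ddit4l, described further on. They are shown from RefSeq (GRCm38.p6), 5′ to 3′ in the gene's direction, with the match in capitals.
Ei24, chr9:36797335-36797384, minus strand: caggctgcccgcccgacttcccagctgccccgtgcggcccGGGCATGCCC
Ccng1, chr11:40755422-40755511, minus strand: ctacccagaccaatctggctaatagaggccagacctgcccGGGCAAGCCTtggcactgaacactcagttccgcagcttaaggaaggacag
Ddit4l, chr3:137623542-137623631, plus strand: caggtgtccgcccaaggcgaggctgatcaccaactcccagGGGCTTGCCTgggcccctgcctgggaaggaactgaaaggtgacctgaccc
The match began 10 bases before the RefSeq start in Ei24, 185 in Ccng1 and 90 in Ddit4l. GENCODE places the starts of Ei24 and Ddit4l elsewhere, and both stretches lie inside its gene spans (chr9:36779159-36797393 and chr3:137621612-137628333). Windows ran from 250 bases before to 50 after the start, and both strands were searched. Of 27025 genes with such a window, 2582 (9.55%) had the decamer, and of the 20 p53 targets with a window 10 had it. The full element, with adjacent decamers, was in 3 of 27025 genes (0.0111%), in 0 of the 20 p53 targets and in 0 of the 3 called genes with a window, which says only that these letters are not there. A match describes the letters and no binding, and Zmat3 had no window in the table used.

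Mcam (ENSMUSG00000032135, chr9:44134469-44142727), the cell adhesion molecule CD146, had the largest fold change of the 5. Topical controls were at 1.06, 1.10, 1.37, 1.43 and 1.07 CPM, and topical cKO at 13.2, 16.6, 24.1, 16.6 and 28.0 CPM. Systemic controls 1, 3, 4 and 5 were at 0.957, 2.75, 1.91 and 2.43 CPM, and systemic cKO 2, 6 and 7 at 10.4, 10.9 and 8.63 CPM. The libraries labelled systemic cKO 4 and 5 had 1.49 and 1.86 CPM and the library labelled systemic control 6 had 3.18 CPM. Apart from these 3, all cKO libraries were above all controls. On the log2 scale Mcam rose by 2.72 (SE 0.44, adjusted p 0.0281), and without the 3 libraries by 3.31 (SE 0.27, adjusted p 4.55e-07). The latter choice favours genes that follow Esr1, as Mcam did in the libraries labelled systemic cKO 4 and 5. The topical change was 4.03 (SE 0.48) and the systemic one 1.49 (SE 0.44), and their difference of -2.54 (SE 0.64) did not pass the test (adjusted p 0.0702).

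Exoc4 (ENSMUSG00000029763, chr6:33249085-33973979) encodes a subunit of the exocyst, the complex that tethers secretory vesicles to the plasma membrane. It was at 24.7, 22.7, 27.0, 24.7 and 25.3 CPM in topical controls and at 32.7, 38.8, 37.6, 33.9 and 43.6 CPM in topical cKO, with no overlap. Systemic controls were at 19.3, 24.5, 18.2, 16.4 and 23.9 CPM and systemic cKO at 28.3, 23.6, 24.7, 37.8 and 28.8 CPM. There the libraries labelled systemic cKO 4 and 5 were the lowest cKO, near the highest control. Exoc4 rose by 0.53 (SE 0.097, adjusted p 0.0438), and by 0.63 (SE 0.097, adjusted p 0.00498) without the 3 libraries. With the indicator of the 6 libraries high in Gm10800 it lost its call (0.56, SE 0.12, adjusted p 0.0799). The topical and systemic values were 0.58 (SE 0.14) and 0.48 (SE 0.14).

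St14 (ENSMUSG00000031995, chr9:31089402-31131853) encodes matriptase, a membrane serine protease needed for the epidermal barrier. Topical controls were at 25.4, 29.9, 23.3, 28.4 and 35.9 CPM and topical cKO at 38.8, 41.1, 39.2, 32.5 and 47.7 CPM. Systemic controls were at 27.4, 27.6, 26.3, 25.8 and 30.3 CPM and systemic cKO at 32.8, 44.1, 41.2, 36.0 and 40.8 CPM, without overlap. The libraries labelled systemic cKO 4 and 5 were the highest of their group. St14 rose by 0.49 (SE 0.090, adjusted p 0.0438), with 0.48 (SE 0.13) topically and 0.51 (SE 0.13) systemically. Leaving out the 3 libraries gave 0.46 (SE 0.097, adjusted p 0.0561), and with the indicator of the 6 libraries 0.42 (SE 0.11, adjusted p 0.217).

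Cdh3, P-cadherin of basal keratinocytes, came next among the rising genes but was not called (0.66, SE 0.13, adjusted p 0.0579). Its levels were 32.6 to 48.1 CPM in topical controls against 44.8 to 59.5 CPM in topical cKO, and 18.5 to 28.2 CPM in systemic controls against 28.3 to 51.2 CPM in systemic cKO. Systemic cKO 2 was the lowest of its group at 28.3 CPM, just over the highest control. With the indicator of the 6 libraries Cdh3 was at 0.40 (SE 0.13, adjusted p 0.541).

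**Figure D3:**
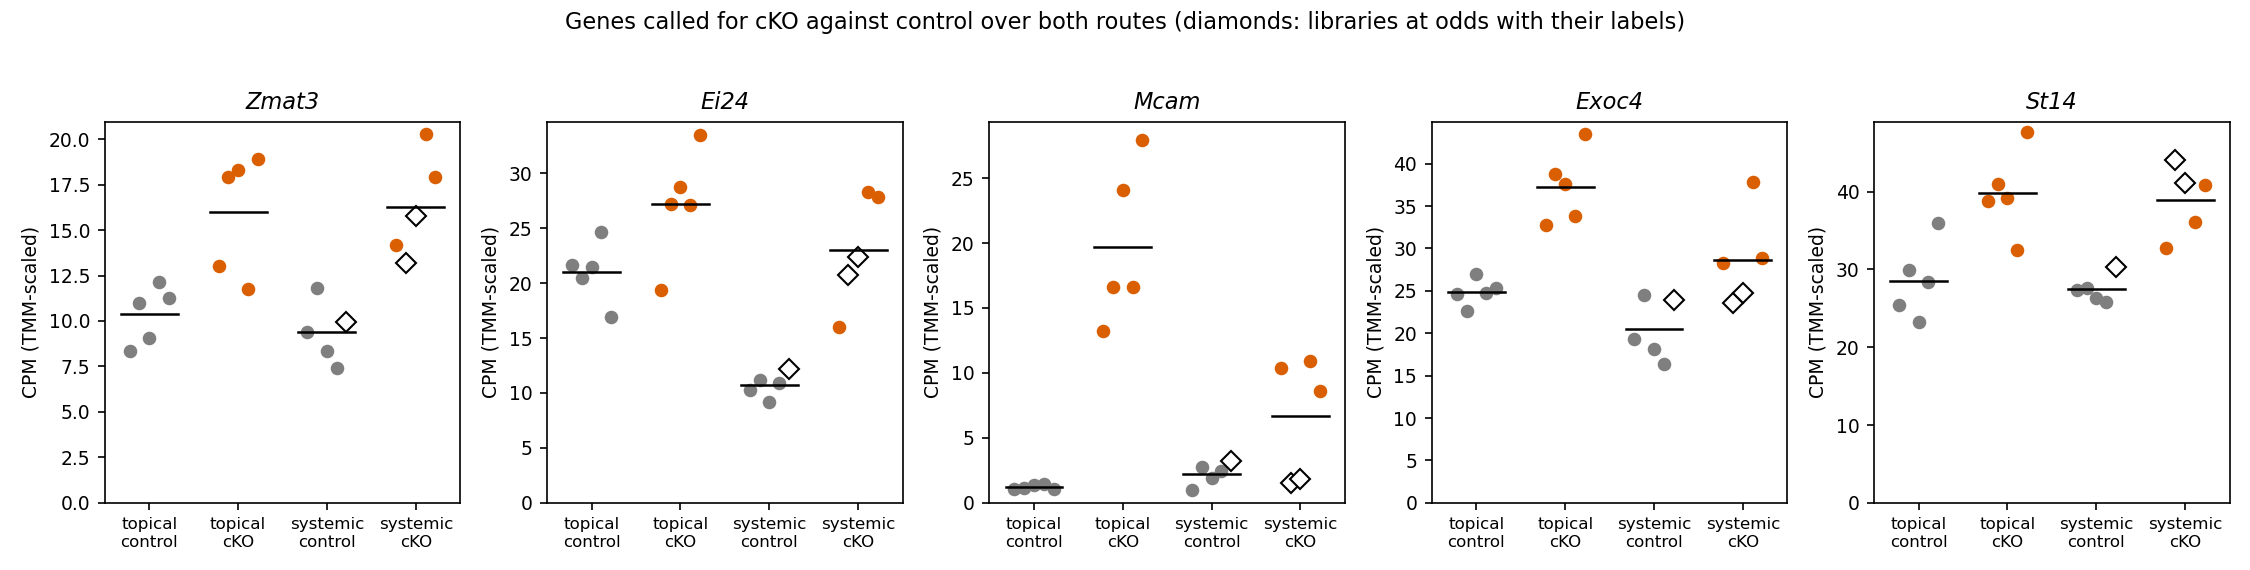
CPM of the 5 called genes in each library by route and genotype, with lines at the group means and diamonds for the 3 libraries at odds with their labels. In Zmat3, Ei24 and St14 the diamonds labelled cKO lie with the other systemic cKO libraries, and in Mcam they lie among the controls at 1.49 and 1.86 CPM.

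On the lower side, Tppp, a tubulin polymerization-promoting protein, came closest to a call. Topical controls were at 26.7, 19.7, 36.3, 26.9 and 27.8 CPM and topical cKO at 19.4, 18.04, 17.9, 16.1 and 18.6 CPM. Systemic controls ran from 30.8 to 41.2 CPM, and systemic cKO were at 24.1, 34.0, 28.6, 27.8 and 26.1 CPM. The topical groups did not overlap, and in the systemic groups only the library labelled systemic cKO 4 reached the control range. Its value over both routes was -0.48 (SE 0.099, adjusted p 0.0846), and without the 3 libraries Tppp fell by 0.56 (SE 0.10, adjusted p 0.0252). It was the 1 gene called lower there.

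The other lower genes with an unadjusted p under 0.05 in each route were not called over both. Zfp317, a zinc finger protein, had a value of -0.43 (SE 0.11, adjusted p 0.215), and Dpp4, the membrane peptidase CD26, had -0.60 (SE 0.16, adjusted p 0.308). Skint7, an immunoglobulin-like protein of a family in skin and thymus that supports epidermal T cells, had -0.92 (SE 0.25, adjusted p 0.361). Skint7 was at 2.89 to 5.64 CPM in topical controls, 0.979 to 4.31 CPM in topical cKO, 9.83 to 16.7 CPM in systemic controls and 3.44 to 14.3 CPM in systemic cKO. Within the systemic cKO group, systemic cKO 2 was at 14.3 CPM and the other 4 at or below 6.13 CPM. Skint7 has close relatives whose reads may be split. Uckl1, a uridine-cytidine kinase-like protein, had -0.27 (SE 0.080), AW549877 had -0.43 (SE 0.12) and Bnipl had -0.29 (SE 0.096), each with an adjusted p of 0.361 or more. Of these, only Zfp317 also had an unadjusted p under 0.05 in both routes without the 3 libraries.

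Of 27 listed targets of p53, 26 were tested, and 2 of these (Zmat3 and Ei24) rose, beside 0.0402% of all genes called higher. At an unadjusted p under 0.05, 11 of the 26 were higher and none was lower, beside 3.86% of all genes higher. In both routes 15 of 26 were higher, against 22.4% of all genes. The median log2 fold change of the list was 0.332, with 0.579 topically and 0.157 systemically, while that of all genes was 0.011. Without the 3 libraries 5 of 26 rose (beside 0.159% of all genes), namely Zmat3, Ddit4l, Polk, Ccng1 and Dcxr. There 15 were higher before adjustment (beside 4.24%), none was lower, and the median was 0.482. The list was drawn up with earlier results of these data known, so its direction is no independent evidence.

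Ddit4l, a stress-induced inhibitor of mTOR signalling, had the largest difference of the list but low levels. It was at 0 to 0.214 CPM in topical controls, near the floor, and at 1.45, 1.499, 1.92, 1.94 and 3.57 CPM in topical cKO. Systemic cKO 2, 6 and 7 were at 0.617, 0.696 and 0.625 CPM, above the systemic controls at 0 to 0.267 CPM. The libraries labelled systemic cKO 4 and 5 had 0.0978 and 0.0351 CPM, within the control range. Ddit4l was not called over all 20 libraries (2.91, SE 0.62, adjusted p 0.103) and rose by 3.83 (SE 0.48, adjusted p 2.69e-04) without the 3, a choice that favours genes following Esr1.

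Ccng1, cyclin G1, ranged from 18.4 to 31.9 CPM in topical controls and from 34.4 to 59.6 CPM in topical cKO, without overlap. In the systemic mice it ranged from 19.3 to 25.5 CPM in controls and from 22.4 to 37.6 CPM in cKO, which overlapped. Its fold change was 0.65 (SE 0.14, adjusted p 0.125), and 0.77 (SE 0.15, adjusted p 0.04) without the 3 libraries. Polk, a translesion DNA polymerase, had 0.58 (SE 0.20, adjusted p 0.508) over all libraries and rose by 0.86 (SE 0.15, adjusted p 0.017) without the 3. Its systemic difference was -0.01 (SE 0.21) over all 20 libraries and 0.39 (SE 0.20) without the 3. Mdm2, the ubiquitin ligase that restrains p53, had 0.32 (SE 0.14, adjusted p 0.645), and Sesn2, a stress-induced regulator of metabolism, had 0.61 (SE 0.24, adjusted p 0.615), with 0.09 topically and 1.13 systemically.

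Dcxr, Mgmt, Fbxw9 and Ptp4a3, known from the topical comparison, had smaller differences in the systemic mice. Topically they were at 1.38, 1.61, 1.19 and 1.85, and systemically at 0.23, 0.21, 0.28 and 0.31. Mgmt, which repairs alkylated guanine, was at 2.43 to 3.99 CPM in topical controls and 7.12 to 10.8 CPM in topical cKO, but at 3.09 to 3.83 CPM in systemic controls and 3.01 to 5.38 CPM in systemic cKO. The systemic minus the topical effect was -1.40 (SE 0.26, adjusted p 0.0165), 1 of 31 such differences (0.25% of genes) that passed the test. For Dcxr, a carbonyl reductase listed among p53 targets, systemic minus topical was -1.16 (SE 0.22, adjusted p 0.0251). In Fbxw9 (-0.91, SE 0.21, adjusted p 0.0605) and Ptp4a3 (-1.54, SE 0.34, adjusted p 0.0517) the difference did not pass the test. Between routes in the other 17 libraries, these differences were -1.24 (SE 0.29, adjusted p 0.155) for Mgmt and -1.23 (SE 0.24, adjusted p 0.112) for Dcxr. Over both routes, Mgmt was at 0.92 (SE 0.20, adjusted p 0.103), Dcxr at 0.81 (SE 0.17, adjusted p 0.0846), the F-box protein gene Fbxw9 at 0.74 (SE 0.14, adjusted p 0.0579) and the phosphatase gene Ptp4a3 at 1.10 (SE 0.24, adjusted p 0.117). All 4 rose when the 3 libraries were left out, with adjusted p from 0.0106 for Fbxw9 to 0.044 for Dcxr. Ptp4a3 (chr15:73723145-73758766) lies on the chromosome of Cyp11b1, and of 30 tested genes listed near Cyp11b1, 6 were higher and 4 lower at an unadjusted p under 0.05, beside 3.86% and 2.95% of all genes. In the other 17 libraries 1 of the 30, Ptp4a3, was higher and 3 were lower, beside 4.24% and 1.92%, and the list's medians were 0.001 and 0.022.

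Of 36 listed interferon-stimulated genes 21 were tested, and 19 had a positive fold change. The edgeR test called 0, with 9 higher and none lower at an unadjusted p under 0.05, beside 3.86% of all genes higher. DESeq2 called 3 of them (Bst2, Oasl2 and Ifi27l2a) and limma voom called 0. In both routes 13 of 21 were higher, against 22.4% of all genes, and the median log2 fold change was 0.456, with 0.748 topically and 0.139 systemically. Leaving out the 3 libraries, 23 were tested, 10 were higher at an unadjusted p under 0.05 (beside 4.24% of all genes), none was lower and the median was 0.503. Topical cKO 7 stood high in several members, and without it the median over both routes was 0.264.

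Bst2, the virus-tethering protein tetherin, was at 0.683 to 1.43 CPM in topical controls and at 1.84, 3.81, 4.46, 1.86 and 10.2 CPM in topical cKO. In the systemic mice it was at 0.500 to 0.778 CPM in controls and at 0.617, 1.88, 1.37, 1.71 and 0.875 CPM in cKO. The topical groups did not overlap, and systemic cKO 2 was the only systemic cKO library within the control range. Its log2 fold change was 1.53 (SE 0.31, adjusted p 0.0846), and without the 3 libraries its systemic value was 0.75 (SE 0.57, edgeR unadjusted p 0.204). Oasl2, a relative of the oligoadenylate synthetases that sense viral RNA, was at 0.656 to 1.89 CPM in topical controls and at 1.96, 7.32, 5.38, 1.84 and 17.5 CPM in topical cKO. In systemic controls it was at 0.319 to 1.51 CPM and in systemic cKO at 3.08, 1.27, 2.64, 2.34 and 3.06 CPM. Only the library labelled systemic cKO 4 fell into the systemic control range. The log2 fold change of Oasl2 was 1.88 (SE 0.38, adjusted p 0.0846), and without topical cKO 7 it was 1.49 (SE 0.30, adjusted p 0.0691).

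Cxcl10, a chemokine that attracts activated T cells, was at 3.003 to 8.28 CPM in topical controls and 5.37 to 15.9 CPM in topical cKO. Systemic controls ran from 2.99 to 7.31 CPM and systemic cKO from 3.74 to 14.6 CPM, so both pairs of groups overlapped. Cxcl10 had 1.06 (SE 0.26, adjusted p 0.219), with 0.91 (SE 0.37) topically and 1.205 (SE 0.37) systemically. Cxcl10 (chr5:92346638-92348889, minus strand) lies within Art3 (chr5:92331827-92414628, plus strand), which had 0.65 (SE 0.20, adjusted p 0.449), and without stranded counting their reads cannot be told apart where exons overlap. Igtp, an interferon-gamma-induced GTPase, was at 1.10 to 2.77 CPM in topical controls and 1.38 to 8.80 CPM in topical cKO. In the systemic mice Igtp was at 1.43 to 2.96 CPM in controls and 3.38 to 5.70 CPM in cKO, which did not overlap. Its log2 fold change was 1.09 (SE 0.27, adjusted p 0.219).

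The promoters of these 3 interferon-responsive genes hold the core of the interferon-stimulated response element (GAAA, any 2 bases, GAAA), given here in capitals from RefSeq (GRCm38.p6).
Bst2, chr8:71537547-71537642, minus strand: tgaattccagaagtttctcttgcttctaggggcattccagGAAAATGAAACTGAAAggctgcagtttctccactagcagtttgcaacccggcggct
Igtp, chr11:58199482-58199555, plus strand: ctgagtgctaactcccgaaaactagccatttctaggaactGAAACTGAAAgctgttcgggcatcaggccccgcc
Cxcl10, chr5:92349053-92349139, minus strand: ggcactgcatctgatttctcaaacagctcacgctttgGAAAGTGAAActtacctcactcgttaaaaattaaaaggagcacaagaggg
In Bst2 the capitals cover 2 overlapping matches, which began 130 and 124 bases before the start. On either strand of the same windows, 1079 of 27025 genes (3.99%) had the core. Of the 32 genes with the same direction in both routes, 23 had a window and 5 of these had the core, the others being Dpp4 and Plcd3. Among the 15 tested interferon-stimulated genes with a window, 7 had it. The glucocorticoid response element (GNACA, any 3 bases, TGTNC) was in 0.537% of genes and in 0 of the 23, which says only that these letters are not in these windows.

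Antigen presentation genes had a positive median of 0.319 (0.257 topically and 0.404 systemically), with 4 of 22 higher at an unadjusted p under 0.05 (beside 3.86% of all genes) and none called by edgeR. DESeq2 called H2-Eb1 of this list and limma voom called 0. H2-Eb1, a chain of class II molecules, was at 1.06 to 3.29 CPM in topical controls, 2.37 to 7.14 CPM in topical cKO, 1.07 to 2.24 CPM in systemic controls and 2.57 to 4.32 CPM in systemic cKO. Its values were 0.96 (SE 0.31) topically and 0.997 (SE 0.31) systemically, and 0.98 (SE 0.21, adjusted p 0.116) over both. In the other 17 libraries 1 of 22 members of the list, H2-Eb1, was higher at an unadjusted p under 0.05 (beside 4.24%), and the median was 0.1. Over the alternative settings run, the list's median went from -0.03 to 0.385. H2 genes have near-identical copies among which reads may be split.

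**Figure D4:**
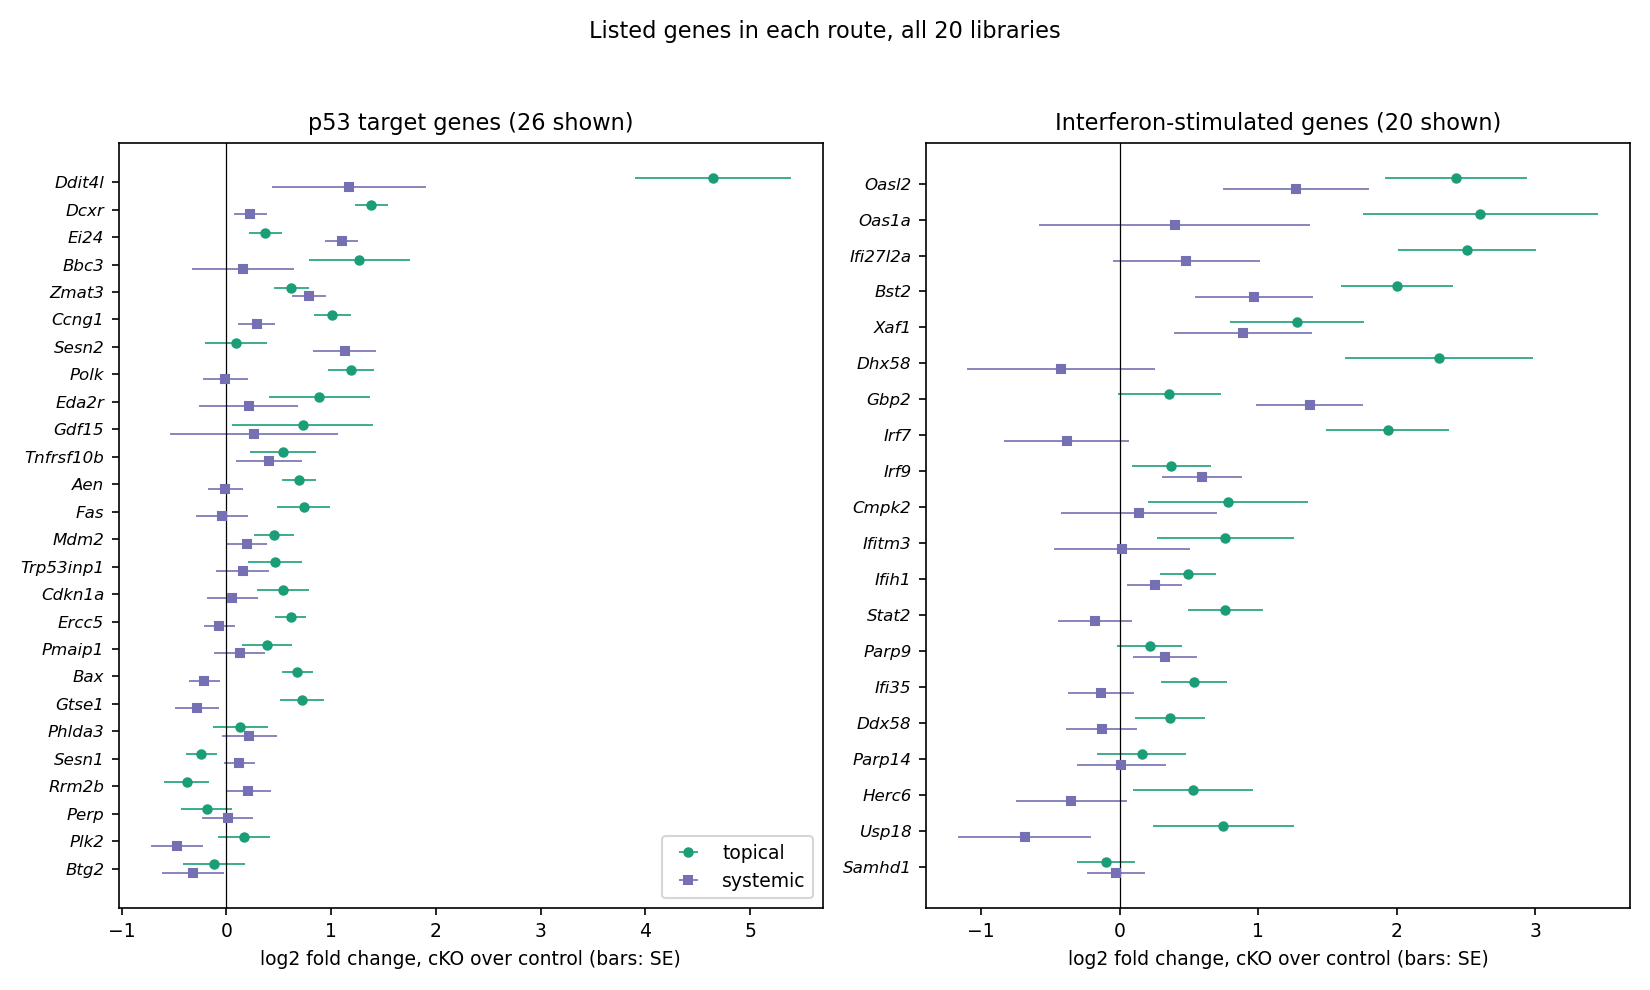
Log2 fold changes of cKO over control with standard errors for the 26 tested p53 targets and 20 of the 21 tested interferon-stimulated genes, topical as circles and systemic as squares, over all 20 libraries. Most topical values lie above 0, with medians over all tested members of 0.579 and 0.748, and the systemic values lie closer to 0, with medians of 0.157 and 0.139.

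Genes induced by glucocorticoids showed no call. Of 22 listed genes 20 were tested, and at an unadjusted p under 0.05 there were 2 higher and none lower, beside 3.86% and 2.95% of all genes, with a median of 0.138. These were Ddit4, an inhibitor of mTOR (0.70, SE 0.27, adjusted p 0.615), and Klf9, a transcription factor (0.42, SE 0.18, adjusted p 0.654). DESeq2 and limma voom called 0 of this list. Nr3c1, the glucocorticoid receptor, was at 26.8 ± 6.66 CPM in topical controls, 28.0 ± 5.37 in topical cKO, 31.2 ± 3.54 in systemic controls and 28.8 ± 4.18 in systemic cKO (SD, n = 5 each), which differed by less than their spread. In the other 17 libraries the list had 3 of 20 genes higher at an unadjusted p under 0.05 (beside 4.24%), none lower and a median of 0.063.

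The remaining lists are given by their counts at an unadjusted p under 0.05, to be read beside 3.86% of all genes higher and 2.95% lower. Here 2 of 24 keratinocyte inflammation genes (Cxcl10 and Cxcl9) were higher, with a median of 0.103. Of 30 terminal differentiation genes 5 were higher and 1 lower, with a median of 0.163, but -0.144 topically and 0.26 systemically. Of the 5, Lor (-0.17 topically and 2.62 systemically), Flg2 (-0.07 and 1.78) and Cdsn (-0.12 and 1.79) had opposite signs. In both routes 5 of the 30 were higher, beside 22.4% of all genes. Proliferation genes had 1 of 30 lower and a median of -0.042. Basal keratinocyte genes had 1 of 18 higher and a median of -0.006 (0.193 topically and -0.152 systemically). Stress keratin and wound genes had 2 of 17 higher (median 0.125, with 0.372 topically and -0.283 systemically). These 2, Areg (-0.17 topically and 1.66 systemically) and Ereg (-0.33 and 1.81), had opposite signs in the routes. NRF2 targets had 3 of 21 higher (0.105), steroid synthesis and receptor genes 1 of 12 higher (0.046), and estrogen receptor targets 1 of 6 higher, Esr1 itself (0.172). Dissociation response genes, which mark handling of cells, had 1 of 25 higher and 1 lower, with a median of -0.087. In the other 17 libraries, where 4.24% of all genes were higher and 1.92% lower, keratinocyte inflammation genes had 5 of 25 higher and 1 lower (median 0.207). Terminal differentiation genes had 4 of 30 higher and 3 lower there (0.162, with -0.146 topically and 0.415 systemically). There 0 of 30 proliferation genes (-0.008) and 0 of 18 basal keratinocyte genes (0.048) were under 0.05 in either direction. Stress keratin and wound genes had 1 of 18 higher (0.251, with 0.34 topically and -0.159 systemically), NRF2 targets 3 of 21 (0.043), steroid synthesis and receptor genes 2 of 12 (0.039) and estrogen receptor targets 1 of 6 (-0.041), with none lower. Dissociation response genes had 2 of 25 higher and 1 lower (-0.104).

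Markers of other cells were compared in the same fit. Fibroblast markers summed to 47.0 to 70.1 CPM in topical controls, 47.0 to 121 in topical cKO, 37.8 to 62.4 in systemic controls and 37.9 to 59.6 in systemic cKO, with a median log2 fold change of 0.302 over 10 tested genes, of which 3 were higher in both routes (22.4% of all genes). Of these 10, in the other 17 libraries, 8 were higher in both routes (25.7% of all genes), with a median of 0.501. Epidermal immune cell markers summed to 74.5 to 174 CPM in topical controls, 121 to 215 in topical cKO, 87.5 to 276 in systemic controls and 105 to 228 in systemic cKO, with Cd207 at no more than 0.351 CPM. Over the 4 tested genes of this list the median was 0.155, and 0.329 in the other 17 libraries. Mitochondrially encoded genes had 4 of 9 higher at an unadjusted p under 0.05 (beside 3.86% of all genes) and 8 of 9 higher in both routes, with a median of 0.51. They had, in the other 17 libraries, 3 of 9 higher (beside 4.24%) and 8 of 9 in both routes, with a median of 0.447. Endothelium and pericyte markers, 8 tested, had a median of 0.076, with 0.526 topically and -0.472 systemically. This median was 0.5 in the other 17 libraries, with 0.529 and 0.329, and 5 of 8 were higher in both routes (beside 25.7%). Their summed level was 15.02 to 18.9 CPM in topical controls, 9.97 to 28.8 in topical cKO, 11.3 to 24.0 in systemic controls and 5.25 to 13.2 in systemic cKO, and Mcam is known from these cells too. Medians over all 20 and over the 17 libraries were -0.394 and -0.176 for melanocytes, 0.276 and 0.046 for sebaceous gland, and -0.077 and -0.146 for hair follicle. Erythroid, skeletal muscle and nerve lists had at most 2 genes tested. The part of these differences in the results was not tested.

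Several other genes were higher in each route without a call over both. Cldn4, a tight junction claudin, was at 99.0 to 248 CPM in topical controls, 128 to 665 CPM in topical cKO, 43.0 to 101 CPM in systemic controls and 145 to 771 CPM in systemic cKO. The systemic groups of Cldn4 did not overlap, and its fold change was 1.74 (SE 0.37, adjusted p 0.103). Hmox1, heme oxygenase 1, had 0.50 (SE 0.16, adjusted p 0.452). Ticam1, an adaptor of Toll-like receptor 3 that leads to interferon, had 0.35 (SE 0.10, adjusted p 0.407). Dsc2 had 1.69 (SE 0.52, adjusted p 0.449) over all libraries, and 2.72 (SE 0.32) without the 3. Since Dsc2 was shown against the labels of those 3, the latter value is a description. Further members were Tmem43 (0.55), Lasp1 (0.37), Plcd3 (0.69), Itpripl2 (0.66), Ubxn8 (0.31), Cdc34 (0.35), 1700007K13Rik (0.94) and E130208F15Rik (0.49), each with an adjusted p of 0.215 or more. Of these further members, only Plcd3 and Itpripl2 also had an unadjusted p under 0.05 in both routes without the 3 libraries.

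Leaving out the 3 libraries gave 20 genes called higher. Esr1 (4.66, SE 0.24) and Gypc (5.74, SE 0.31), used to doubt those libraries, are given without a test, and others were Mcam, Dsc2, Ddit4l, Exoc4, Dglucy, Fbxw9, Abcb1b, Mgmt, Zmat3, Polk, Kank3, Ccng1, Ptp4a3, Plod2, Gapdhs, Cpt1c and Dcxr. Dglucy, a mitochondrial D-glutamate cyclase, rose by 2.69 (SE 0.43, adjusted p 0.00794), and Abcb1b, a drug efflux pump, by 1.19 (SE 0.20, adjusted p 0.0106). Plod2, a collagen lysyl hydroxylase, rose by 1.98 (SE 0.39, adjusted p 0.04). Besides Esr1 and Gypc, whose parting follows from the choice of libraries, 7 of the 12582 genes had every one of the 8 cKO libraries above every one of the 9 controls. They were Mcam, Ddit4l, Dsc2, Dglucy, Plod2, Exoc4 and Fbxw9, and 0 genes parted the 17 libraries in the lower direction. Over all 20 libraries, 0 genes were higher and 0 lower in every cKO library than in every control. The parting of the 7 genes is a description of the 17 libraries, since genes that vary with Esr1 are favoured by that choice. The same limit bears on the adjusted p of such genes there.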

How the data were processed

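The authors deposited 1 table of raw counts, whole-number reads per gene for 25719 Ensembl mouse identifiers in 20 libraries. Per the submitters' processing notes, STAR, featureCounts and the GRCm38 (mm10) build were used, with roles, versions and strand setting not given in the sources used here. Per the labels' protocols, total RNA of sorted keratinocytes was made into SmartSeq II libraries. No molecular identifiers are described, so floors of 3 counts cover counting error only.

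Counts were fitted with edgeR 4.0.16 in R 4.3.3 (TMM, filterByExpr by group with minimum count 10 and minimum total count 15, robust quasi-likelihood, route plus genotype). F-test p-values had a Benjamini-Hochberg adjustment across every tested gene, with calls at an adjusted p under 0.05. Effects within routes and their difference came from a fit with 1 coefficient per group. Levels are CPM on TMM-scaled totals. On simulated data of 12280 genes, 168 of 200 genes changed by a log2 value of 1 were called, with 5 false calls. There both routes had the same effect and no library went against its label, so the sensitivity in these data is not given by it.

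Named were called genes with the same direction in both routes, filled to 6 per direction with the smallest p among genes under 0.05 in each route, Cyp11b1, called list members, Mgmt, Mcam, Dcxr, Fbxw9 and Ptp4a3, with predicted genes passed over. Other genes were chosen after their values were seen. The values of 3 genes are not reported here, though counts include them. The members and lists were chosen with earlier results of these data known. P-values measure the spread between mice.

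Alternatives were DESeq2 1.42.0, limma 3.58.1 voom, other scaling, filters and dispersion, the mean of the contrasts, single-route fits, sex, mitochondrial percent, the 6 libraries high in satellite-like transcripts and the number in the sample name as covariates, a pseudocount of 0.1 CPM and leaving out each library. Leaving out the 3 libraries at odds with their labels, also with sex or the 6 libraries as covariate, was added after seeing the data. Of the identifiers, 25614 were in GENCODE M21, which gave coordinates, and 24950 carried the same symbol there.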

Additional observations from a re-analysis of the deposited data

Results flagged for a closer look

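Levels of 62 genes in 4 groups of 5 libraries, 248 groups in all, were searched for a library far from the rest of its group (gap over range above 0.71), and 17 were found. Chance gives such a library in about 1 in 20 groups. The library labelled systemic control 6 was far above its group in Esr1 (43.74 against the nearest at 4.411 CPM), Gypc (16.28 against 0.5004), Dsc2 (17.96 against 1.939), Dglucy (1.215 against 0.2694), Gapdhs (2.236 against 1.66) and Ercc5 (17.37 against 13.74).

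Topical cKO 7 was far above the other topical cKO libraries in the interferon-stimulated genes Oas1a (48.18 against 13.38 CPM) and Ifi27l2a (50.53 against 14.31), and in Ddit4l (3.572 against 1.94) and Polk (12.28 against 8.532). Systemic cKO 2 was far above its group in Skint7 (14.27 against 6.127 CPM) and Dglucy (1.321 against 0.4427). Tap1 was high in the library labelled systemic cKO 4 (212.9 against 160.4 CPM), Cxcl10 in systemic control 4 (7.308 against 3.766), Dpp4 in systemic control 1 (5.425 against 3.28) and Ubxn8 in topical control 1 (5.296 against 4.505). Ubxn8 was low in systemic control 4 (3.818 against 4.504 CPM).

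The genotype effect differed between the routes in Mgmt (systemic minus topical -1.40, edgeR adjusted p 0.0165) and in Dcxr (-1.16, adjusted p 0.0251), and without the 3 libraries at odds with their labels neither difference passed the test (adjusted p 0.155 and 0.112).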

How the results depend on the processing

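The 5 genes called over both routes became 5 with DESeq2-style size factors, 5 with a non-robust fit, 6 among genes of at least 5 CPM, 3 with all genes, 11 with limma voom, 40 with DESeq2 and 39 with the mean of the within-route contrasts (36 in the same direction). They became 25 with mitochondrial percent (17 higher and 8 lower, against 5 and 0) and 15 with the indicator of the 6 libraries (13 in the same direction). With sex as a covariate 0 were called by edgeR (813 at an unadjusted p under 0.05), the 5 having adjusted p from 0.0564 to 0.0679. Leaving out each library in turn gave 0 to 13 calls, 0 to 10 in the same direction. Leaving out the 3 libraries gave 21, with the indicator added 27 (20 in the same direction) and with sex added 20 (16 in the same direction). The count of genes under 0.05 in both routes with the same direction, 32, stayed between 23 and 40 in all settings run. The Cyp11b1 difference ran from -0.056 to 0.0089 with single libraries left out, and reversed only without topical control 6 (exact permutation p 0.812). Apart from Cyp11b1, no named gene's fold change reversed in any setting run. The call was kept in 10 of 20 fits that left out 1 library for Zmat3, 8 for Mcam, 7 for Exoc4, 6 for St14 and 4 for Ei24. The covariate on summed satellite-like transcripts was not run. Numbers in the sample names are not stated to pair mice. Over 6 same-numbered pairs, deviations correlated at -0.227 to 0.405 and 2 pairs matched best with their own number, too few pairs to decide. With the replicate number as a block beside route 3 genes were called (2 in the same direction), and as a block within route 0 (564 at an unadjusted p under 0.05).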
